A study of Mus musculus with 8 samples.

Results

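Interferon response genes were followed through the livers of wild-type mice and of mice lacking the N-terminal part of the lamin B receptor (LBR). The set holds 9 genes, Ifit1, Ifit3, Irf7, Isg15, Usp18, Rsad2, Irgm1, Igtp and Ifi202b, of the 49671 genes in the table. They were chosen by name as targets of type I and gamma interferon, with earlier results of these data known. Each was found by matching its Ensembl ID to its symbol on GRCm38. RNA was taken from whole liver and sequenced in 8 libraries, with 2 replicates for each genotype, WT and NT-KO, in each sex. The labels give the strain of all mice as C57BL/6, which the study's methods narrow to C57BL/6N, and the mice were sampled after weaning with no treatment named. NT-KO mice carried on both alleles a CRISPR deletion in Lbr that takes away the first start codon. The line goes back to a single male founder that was crossed to C57BL/6N females, so it represents 1 deletion. The study asked whether the N-terminal part of LBR is needed for X inactivation and gene expression, and the comparisons here are NT-KO against WT in each sex, the difference between these effects, and female against male.

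Interferons are secreted when cells sense foreign or misplaced nucleic acid. Type I interferons act through IFNAR1 and IFNAR2, whose kinases JAK1 and TYK2 activate transcription factors that bind to interferon-stimulated response elements (ISRE), while gamma interferon acts through gamma-activated sites (GAS). A low level of target transcripts is present in unchallenged tissue, and in liver both hepatocytes and resident immune cells can respond.

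The type I targets were Ifit1 (chr19:34640871-34650009, + strand) and Ifit3 (chr19:34583531-34588731, +), which encode proteins that bind viral RNA or its partners. Irf7 (chr7:141262706-141266481, - strand) encodes the transcription factor that drives interferon alpha genes. Isg15 (chr4:156199424-156200818, -) encodes a ubiquitin-like modifier, and Usp18 (chr6:121245906-121270917, +) the protease that removes it and also dampens the type I receptor. Rsad2 (chr12:26442746-26456452, -) encodes viperin, an antiviral radical SAM enzyme. Irgm1 (chr11:48861968-48871683, -) and Igtp (chr11:58199556-58207591, +) encode immunity-related GTPases that act at membranes around intracellular pathogens and respond strongly to gamma interferon. Ifi202b (chr1:173962568-173982744, -) belongs to the HIN-200 family of nucleic acid binding proteins, and its expression is known to vary between inbred mouse strains. All positions are gene bounds on GRCm38.

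Library totals lay between 45020377 and 64396291 counts. Levels are given as CPM, the usual scaling of a gene's counts to its library's total, here corrected for composition by the TMM factor. Lbr stood at 6.52 to 8.04 CPM in the 4 WT libraries and at 12.8 to 14.0 CPM in the 4 NT-KO libraries, and a count over the whole gene does not show the deletion itself. Xist and 4 Y-linked genes matched the labelled sex in all 8 libraries. The hepatocyte marker Alb reached 51700 to 83900 CPM. Replicates of each group differed by more than sampling noise, with a chi-square of 112 to 278 per degree of freedom. The labels do not say whether replicates were separate animals, so the p-values measure the spread between these libraries, which may be technical.

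Female NT-KO replicate 1 shared several expression states with both male WT libraries. Of 13117 genes tested, 695 (5.30%) had these 3 libraries all above or all below the other 5, and 9 genes were over 2 times higher in each of the 3 than in any of the 5. Besides Ifi202b these were Mid1, Mid1-ps1, Serpina5, Serpina3c, Gm8730, Gm13736, Zfp605 and B430219N15Rik, which were picked out after their values were seen and lie with Ifi202b on 8 chromosomes. Mid1 stood at 37.1 and 44.0 CPM in male WT and 12.8 CPM in female NT-KO replicate 1, against 1.71 to 3.45 CPM elsewhere. The same library carried the Lbr and Xist levels of its labelled group. The source of these shared states was not tested, and results that rest on female NT-KO replicate 1 are given with and without it.

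The promoters show which of the 9 genes carry the short motifs that interferon-activated factors are known to bind. RefSeq windows on GRCm38.p6, from 250 bases before to 50 bases after the start of transcription, were found for 8 of the 9 genes, all but Usp18. The ISRE core was searched as GAAA, any 2 bases and GAAA on both strands, and GAS as TTC, any 3 bases and GAA, which reads the same on both strands. The ISRE core was present in 6 of the 8 windows, those of Ifit1, Ifit3, Isg15, Rsad2, Irgm1 and Igtp, against 3.44% of 32851 windows of the same length over all genes. GAS was present in 2 of the 8, Igtp and Ifi202b, against 8.30% of all windows. Neither motif was found in the window of Irf7. The 200 bases before the start are printed for 4 genes that represent the patterns, in each case 5′ to 3′ along the gene's own strand with matches in capitals. They are Isg15 (chr4:156200819-156201018, -) with 3 overlapping ISRE cores, Ifit1 (chr19:34640689-34640888, +) with 2 separate ones, Igtp (chr11:58199356-58199555, +) with GAS followed by an ISRE core, and Ifi202b (chr1:173982845-173983044, -) with GAS alone.
Isg15: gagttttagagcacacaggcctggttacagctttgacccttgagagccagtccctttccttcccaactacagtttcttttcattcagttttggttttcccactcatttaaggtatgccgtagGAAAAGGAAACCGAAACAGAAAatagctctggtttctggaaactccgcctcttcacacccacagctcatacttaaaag
Ifit1: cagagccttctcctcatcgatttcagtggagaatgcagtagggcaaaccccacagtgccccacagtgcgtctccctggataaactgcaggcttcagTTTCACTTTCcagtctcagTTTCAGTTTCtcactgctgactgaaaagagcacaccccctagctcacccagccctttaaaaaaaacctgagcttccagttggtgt
Igtp: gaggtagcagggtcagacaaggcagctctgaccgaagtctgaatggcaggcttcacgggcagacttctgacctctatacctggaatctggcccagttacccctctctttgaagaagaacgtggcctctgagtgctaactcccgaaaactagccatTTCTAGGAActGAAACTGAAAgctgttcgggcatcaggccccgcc
Ifi202b: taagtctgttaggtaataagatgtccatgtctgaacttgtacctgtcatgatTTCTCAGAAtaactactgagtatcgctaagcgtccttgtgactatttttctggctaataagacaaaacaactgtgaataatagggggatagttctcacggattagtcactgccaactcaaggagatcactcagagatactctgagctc
The matches of Isg15 began 78, 72 and 66 bases before the start, and those of Ifit1 at 104 and 85 bases. In Igtp the GAS match began 45 bases and the ISRE match 34 bases before the start, and in Ifi202b the GAS match began at 148 bases. A match describes these letters and does not show that a factor was bound.

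All 9 genes passed the filter for testing (at least 1 CPM in at least 2 libraries), but Ifi202b passed only through the 3 libraries in which it was detected. Per kilobase of exon, the mean level over the 8 libraries was highest for Igtp at 21.0 CPM per kb, followed by Isg15 at 11.4, Irf7 at 9.45, Irgm1 at 7.71 and Ifit3 at 6.86. Lower on this scale stood Ifit1 at 2.91, Usp18 at 2.32, Rsad2 at 1.07 and Ifi202b at 0.275 CPM per kb. Each gene's range over the libraries overlapped that of the next gene in this order, except for Rsad2 and Ifi202b. Within single libraries the order was steadier, since Igtp lay above Isg15, Ifit3 above Ifit1, Ifit1 above Usp18 and Usp18 above Rsad2 in all 8. From Isg15 through Irf7 and Irgm1 to Ifit3, neighbours in the order changed places between libraries and cannot be ranked against each other. Isg15 nevertheless lay above Ifit3 in every library. The plot of CPM by library gives every value.

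**Figure D1:**
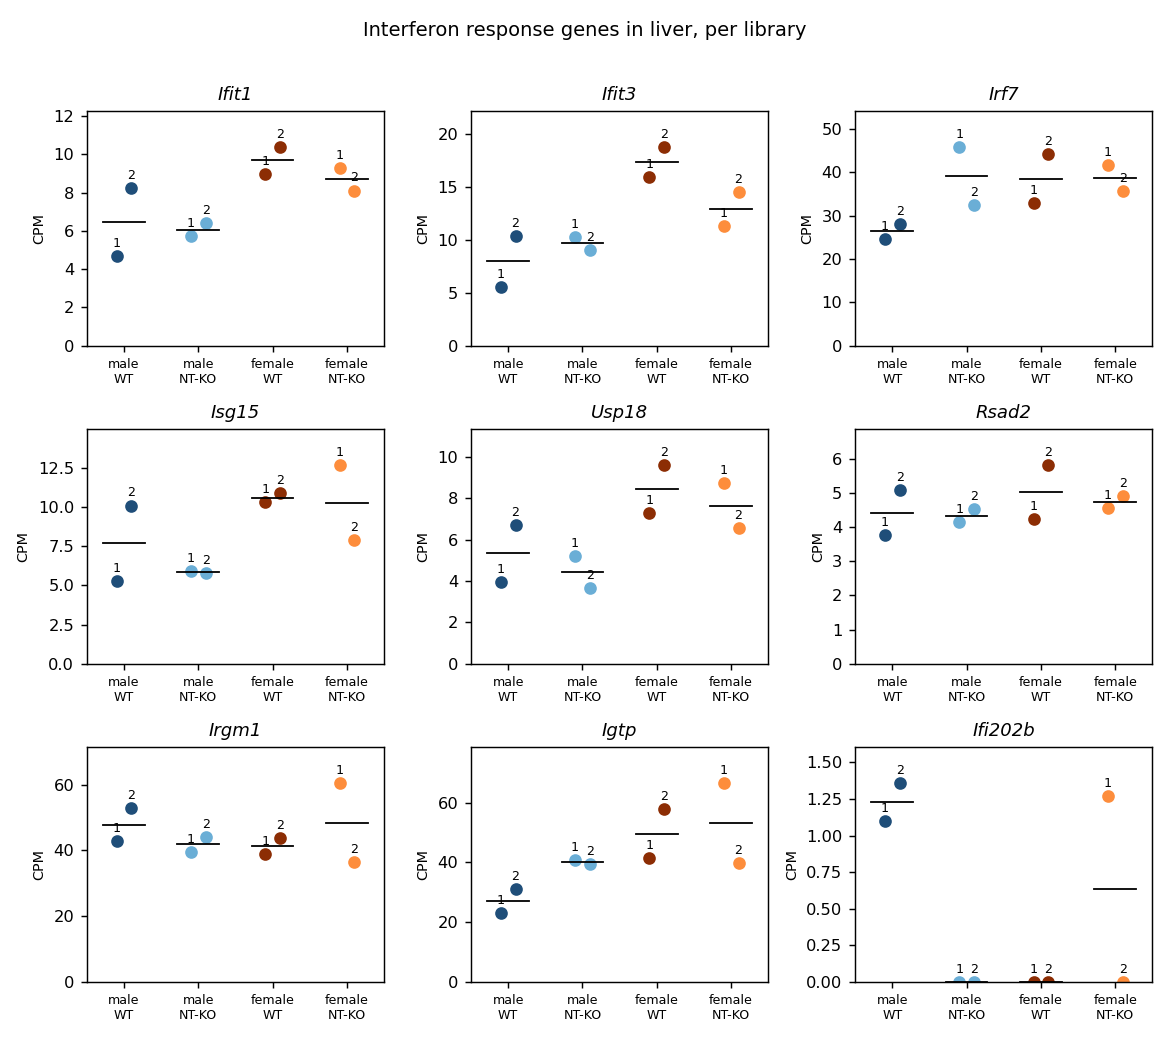
Levels of the 9 interferon response genes (y axis, CPM, linear from 0, each panel with its own scale) in the 4 groups (x axis). Points are libraries, numbered by replicate, and bars are means of 2. Ifit3 is higher in all 4 female libraries than in any male library, and Ifi202b is at 0 in 5 libraries.

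Some of these counts are shared with other genes. Of all 50-base stretches in the Ifit3 transcripts, 51.2% also occur in its paralog Ifit3b, so the split of reads between them is uncertain. The share was 11.8% for Igtp, in Irgm2 which overlaps it on the same strand, and 7.13% for Ifit1, in its paralogs Ifit1bl1 and Ifit1bl2. Irf7 overlaps Phrf1 and Usp18 overlaps Gm44148 on the opposite strand, and whether the counting used strand is not given in the sources used here.

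In males, none of the 9 genes passed the test for NT-KO against WT (FDR of at most 0.05 by edgeR's quasi-likelihood test with Benjamini-Hochberg adjustment, and an absolute log2 fold change over 1), where 0.0152% of all tested genes did. At an unadjusted p under 0.05 there was 1 of the 8 genes other than Ifi202b, Irf7, against 11.5% of all genes. Ifi202b was also under 0.05. Its tests, here and below, carry no weight, since it passed the filter only through the libraries in which it was high. The likelihood ratio test of edgeR called Ifi202b alone and DESeq2 called none of the 9, beside 205 and 218 of all 13117 tested genes. Libraries of the genotypes did not overlap for Irf7 and Igtp, which were higher in NT-KO, and for Ifi202b, which was lower. Over all tested genes 19.6% were higher and 19.2% lower in this sense, so 2 and 1 of 9 genes are near the background.

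Among the type I targets, Irf7 stood at 24.6 and 28.1 CPM in male WT and at 45.9 and 32.4 CPM in male NT-KO. Both NT-KO values lay above both WT values. The fitted log2 difference was 0.57 ± 0.222 (SE) with an edgeR FDR of 0.385, and it ranged from 0.30 without male NT-KO replicate 1 to 0.80 without male NT-KO replicate 2.

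Ifit1 measured 4.69 and 8.26 CPM in male WT and 5.73 and 6.41 CPM in male NT-KO. Ifit3 measured 5.57 and 10.4 CPM in male WT and 10.3 and 9.01 CPM in male NT-KO. Isg15 measured 5.25 and 10.1 CPM in male WT and 5.90 and 5.82 CPM in male NT-KO. In these 3 genes the NT-KO libraries lay between the WT libraries, and their fitted log2 differences of -0.09, 0.28 and -0.39 had edgeR FDRs of 0.935, 0.766 and 0.697.

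Usp18, the protease acting on ISG15 conjugates, stood at 3.96 and 6.73 CPM in male WT and at 5.20 and 3.64 CPM in male NT-KO. Rsad2 stood at 3.76 and 5.10 CPM in male WT and at 4.16 and 4.52 CPM in male NT-KO. The groups overlapped in both genes, with log2 differences of -0.27 and -0.03.

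WT replicate 1 was the lowest of all 8 libraries for 6 of the 8 genes other than Ifi202b, namely Ifit1, Ifit3, Irf7, Isg15, Rsad2 and Igtp, against 13.6% of all tested genes. Leaving it out turned the male difference of Ifit3 from 0.28 to -0.12. Leaving out male WT replicate 2 turned those of Ifit1, Isg15, Usp18 and Rsad2 positive. The directions of these 5 genes in males thus depended on which WT library was kept. In the same library, male WT replicate 1, the summed level of 8 Kupffer cell markers was the lowest of all (175 CPM, others 227 to 371) and that of 5 blood markers the highest (953 CPM, others 170 to 443), and their part in the levels was not tested.

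Of the GTPases, Igtp stood at 23.1 and 31.2 CPM in male WT and at 40.9 and 39.4 CPM in male NT-KO. The genotypes did not overlap, and the log2 difference was 0.56 ± 0.278 (SE) with an edgeR FDR of 0.478. Irgm1 stood at 42.7 and 52.9 CPM in male WT and at 39.4 and 44.1 CPM in male NT-KO, with overlapping groups and a log2 difference of -0.20. Leaving out male WT replicate 1 gave 0.35 for Igtp and -0.35 for Irgm1, and leaving out male WT replicate 2 gave 0.80 and -0.03. Irgm2, which overlaps Igtp and was picked for that reason, had a male log2 difference of -0.20 ± 0.250 (SE).

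In females, none of the 9 genes passed the edgeR test for NT-KO against WT, where 0.00762% of all tested genes did. At an unadjusted p under 0.05 only Ifi202b was counted, whose tests carry no weight, against 1.55% of all genes. Neither the likelihood ratio test nor DESeq2 called any of the 9. Ifit3 measured 15.9 and 18.8 CPM in female WT and 11.3 and 14.5 CPM in female NT-KO. It was the 1 gene of the 9 whose female groups did not overlap, lower in NT-KO by 0.42 ± 0.283 (SE) on the log2 scale with an edgeR FDR of 1.00. This difference was -0.26 with female NT-KO replicate 1 left out and -0.61 with replicate 2 left out. Over all tested genes, 14.9% were lower in this sense.

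Ifit1 stood at 8.99 and 10.4 CPM in female WT and at 9.30 and 8.11 CPM in female NT-KO. Irf7 stood at 32.8 and 44.3 CPM in female WT and at 41.7 and 35.6 CPM in female NT-KO. Isg15 stood at 10.3 and 10.9 CPM in female WT and at 12.7 and 7.88 CPM in female NT-KO. The groups overlapped in each, and the log2 differences of -0.15, 0.01 and -0.04 were smaller than their standard errors of 0.267, 0.221 and 0.326.

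Usp18 measured 7.31 and 9.62 CPM in female WT and 8.72 and 6.56 CPM in female NT-KO. Rsad2 measured 4.23 and 5.83 CPM in female WT and 4.55 and 4.92 CPM in female NT-KO. Neither gene separated the genotypes.

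Both GTPases were spread most in female NT-KO. Igtp stood at 66.6 CPM in female NT-KO replicate 1 and at 39.7 CPM in replicate 2, with 41.5 and 57.7 CPM in female WT. Irgm1 stood at 60.5 and 36.3 CPM in female NT-KO, with 38.8 and 43.6 CPM in female WT. In both genes the NT-KO libraries enclosed the WT libraries. Without female NT-KO replicate 1 the female log2 difference moved from 0.11 to -0.32 for Igtp and from 0.24 to -0.18 for Irgm1.

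The NT-KO effect was not shown to differ between the sexes for any of the 9 genes. Among the 8 genes other than Ifi202b, the lowest FDR for the difference was 0.722, for Irf7 by the edgeR quasi-likelihood test. Over all tested genes 0.0152% were called. Ifi202b had an FDR of 0.573, and its tests carry no weight. Over both sexes the lowest FDR was 0.971, for Irf7. At an unadjusted p under 0.05 there was 1 gene for the difference (Ifi202b) and none over both sexes, against 7.20% and 5.42% of all genes. The likelihood ratio test called Ifi202b for the difference and DESeq2 none of the 9, beside 46 and 62 of all 13117 tested genes. Neither called a gene of the 9 over both sexes. The plot of fitted differences shows the 8 genes other than Ifi202b with their errors.

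**Figure D2:**
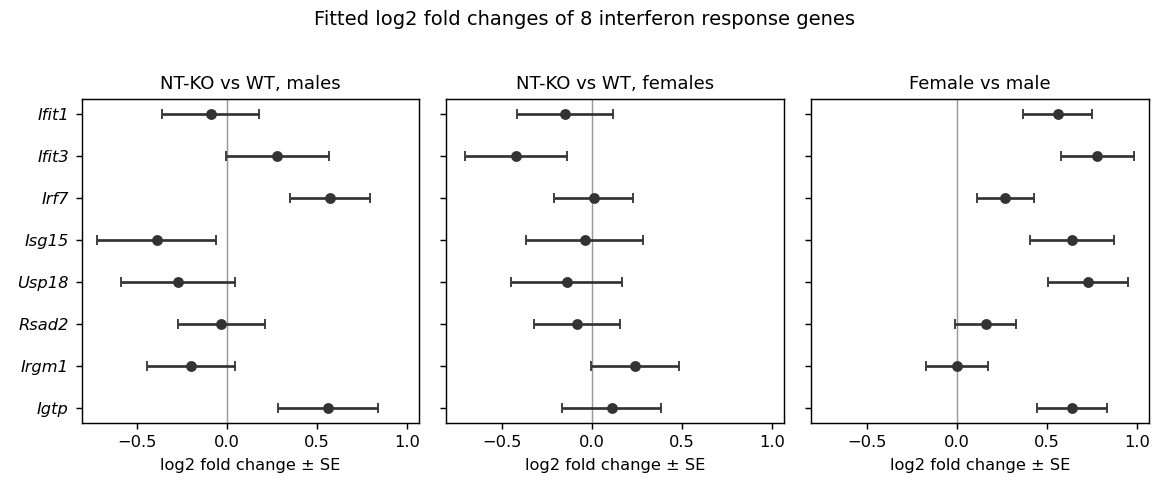
Fitted log2 fold changes with standard errors (x axis, log2 scale) of 8 interferon response genes (y axis) for NT-KO against WT in males, in females, and for female against male over both genotypes. In males they run from -0.39 to 0.57, in females from -0.42 to 0.24, and in the comparison of the sexes 6 of the 8 lie above 0 by more than their standard error.

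Ifi202b was detected in 3 libraries, with 62 and 58 counts in male WT and 73 counts in female NT-KO replicate 1. It had 0 counts in both male NT-KO libraries, in both female WT libraries and in female NT-KO replicate 2, which allows up to 3 counts, or 0.0466 to 0.0593 CPM on the raw totals of these 5 libraries, by counting error alone. In the 3 libraries it stood at 1.10, 1.36 and 1.27 CPM, so where present its level was alike. Male WT was at least 19.9-fold higher than male NT-KO, taking 3 counts per library as the floor, and female NT-KO replicate 1 was at least 28.4-fold higher than replicate 2. The pattern followed neither genotype nor sex, since it was present in 1 of 2 libraries of female NT-KO and absent from both of female WT.

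The tests of Ifi202b carry no weight, since it passed the filter only through the libraries in which it was high and was compared with libraries at 0. Its edgeR FDR in males, 0.344, ran from 3.56e-17 to 0.634 over the alternatives. In females the whole difference rests on female NT-KO replicate 1, and without that library all female counts were 0. The gene lies 7.83 Mb from Lbr on chromosome 1.

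The HIN-200 genes next to Ifi202b did not share its on and off states. The family includes Aim2, a sensor of cytosolic DNA, and Ifi204 and Mndal, which are regulators of transcription. A further 12 members of the family lie in the same 681 kb of chromosome 1, from 173350879 to 174031810, and 9 of them passed the filter. Mndal, 20.1 kb from Ifi202b and one of the family's highest by level, stood at 3.28 and 4.70 CPM in male WT and 11.5 and 6.93 CPM in male NT-KO. In females it stood at 17.1 and 13.4 CPM in WT and 6.68 and 13.5 CPM in NT-KO. All 3 libraries with Ifi202b were thus below the other 5 for Mndal, with 6.68 CPM the highest of the 3 and 6.93 CPM the lowest of the 5.

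The same order held for Ifi204 and Ifi211, which were named with their values known. Over all tested genes, 353 of 13117 lay below in the 3 libraries in this way and 342 lay above. The annotated bounds of Mndal take in Ifi211 and overlap Ifi203 on the same strand, so the split of reads among these 3 genes is uncertain. Ifi204 was at 3.25 to 5.32 CPM in the 3 libraries and 5.63 to 8.77 CPM in the 5, and Ifi211 at 0.355 to 0.564 and 1.02 to 1.54 CPM. In the other 9 genes the libraries overlapped, as in Ifi203, 19.9 kb away, at 6.82 to 11.9 against 8.32 to 13.6 CPM.

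**Figure D3:**
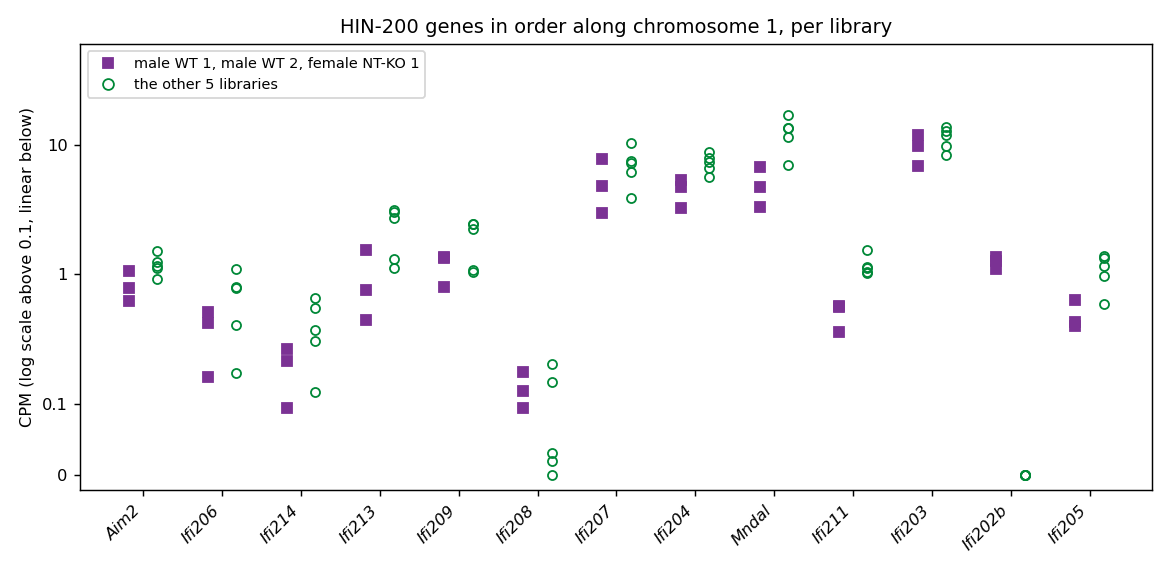
HIN-200 genes in order along chromosome 1 (x axis) with their level in each library (y axis, CPM, log scale above 0.1 and linear below). Filled squares are male WT replicates 1 and 2 and female NT-KO replicate 1, and open circles are the other 5 libraries. Ifi202b is present only in the squares, and Mndal, Ifi204 and Ifi211 are lower in all 3 squares than in any circle. Over all tested genes 353 of 13117 are lower in this way.

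None of these 9 HIN-200 genes passed the edgeR test in either sex. In males DESeq2 called 1 of the 9 as higher in NT-KO, beside 112 of all 13117 tested genes called as higher. Without a filter on low counts edgeR called 1 of 12 as higher, beside 359 of 29724 genes. Their median log2 difference between NT-KO and WT was 0.62 in males and -0.29 in females, beside 0.01 and 0.00 over all tested genes. Mndal had the lowest FDR of the family in males, with a log2 difference of 1.21 ± 0.384 (SE) and an FDR of 0.305, and its range without single libraries was 0.80 to 1.53. Without female NT-KO replicate 1 the female median was -0.13, and without female NT-KO replicate 2 it was -0.87. The medians of B cell, Kupffer cell, monocyte and endothelial markers had the same signs, as did Tcf4, listed for plasmacytoid dendritic cells. Those of hepatocyte, T and NK cell, neutrophil and blood markers did not. Of the markers with the same signs, the 5 of B cells had the largest medians, 0.73 in males and -0.99 in females. Their summed level was 3.79 to 7.97 CPM in the 3 libraries with Ifi202b against 9.06 to 51.1 CPM in the other 5. Of the 51.1 CPM, in male NT-KO replicate 2, Ighm made up 48.1 CPM. The part of these cell types in the HIN-200 levels was not tested.

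By sex, most of the genes stood higher in females. The 8 genes other than Ifi202b had a median log2 difference of 0.60 between female and male over both genotypes, beside -0.01 over all tested genes. No gene of the 9 passed an FDR of 0.05 by edgeR's quasi-likelihood test, where 7.84% of all tested genes did and 4.12% did so as higher in females. At an unadjusted p under 0.05 there were 5 genes, Ifit1, Ifit3, Isg15, Usp18 and Igtp, all higher in females, against 13.8% of all genes higher. By the likelihood ratio test and by DESeq2 the same 3 genes, Ifit3, Usp18 and Igtp, passed an FDR of 0.05, none with a log2 difference over 1. Over all tested genes 1757 and 1849 of 13117 passed that FDR in either direction. The quasi-likelihood test put 5 past the FDR without a filter on low counts, the same ones as at the unadjusted p, and 1 (Ifit3) with a replicate block. Over all genes these settings put 2722 of 29724 and 946 of 13117 past it.

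Ifit3 came closest to the threshold. Its female libraries lay between 11.3 and 18.8 CPM and its male libraries between 5.57 and 10.4 CPM, with no overlap, as in 8.26% of all tested genes that were higher in females. The log2 difference was 0.78 ± 0.202 (SE) with an edgeR FDR of 0.0548, which ran from 0.000101 to 0.159 over the alternatives. It passed 0.05 without male WT replicate 2 (0.0125) and in no other set of 7 libraries. The paralog Ifit3b, which shares much of its sequence and was picked for that reason, lay between 4.36 and 5.23 CPM in females and between 1.92 and 2.96 CPM in males.

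Usp18 lay between 6.56 and 9.62 CPM in females and between 3.64 and 6.73 CPM in males, with a log2 difference of 0.73 ± 0.223 (SE) and an FDR of 0.0818. Isg15 lay between 7.88 and 12.7 CPM in females and between 5.25 and 10.1 CPM in males, with a log2 difference of 0.64 ± 0.233 (SE) and an FDR of 0.127. Ifit1 lay between 8.11 and 10.4 CPM in females and between 4.69 and 8.26 CPM in males, with a log2 difference of 0.56 ± 0.190 (SE) and an FDR of 0.112. In each of these 3 genes the highest male library, male WT replicate 2, reached above the lowest female library, which was female NT-KO replicate 2. Without male WT replicate 1 the log2 differences fell to 0.56 for Usp18, 0.44 for Isg15 and 0.37 for Ifit1. Without male WT replicate 2 they rose to 0.95, 0.92 and 0.79.

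Irf7 and Rsad2 differed less, with log2 differences of 0.27 ± 0.157 and 0.16 ± 0.170 (SE) and FDRs of 0.309 and 0.586. These were the smallest differences of the 6 type I genes, and both groups overlapped.

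Igtp lay between 39.7 and 66.6 CPM in females and between 23.1 and 40.9 CPM in males. Its log2 difference was 0.64 ± 0.196 (SE) with an edgeR FDR of 0.0834, and without single libraries the difference ranged from 0.43 without female NT-KO replicate 1 to 0.81 without female NT-KO replicate 2. The FDR was 0.0492 without female NT-KO replicate 2, the 1 set of 7 libraries in which it passed, and up to 0.229 without female WT replicate 2. Irgm1 lay between 36.3 and 60.5 CPM in females and between 39.4 and 52.9 CPM in males, a log2 difference of 0.00 ± 0.173 (SE). Irgm1 was the 1 of these 8 genes with no difference by sex to 2 decimals, and whether it differed from Igtp in this was not tested.

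Other genes of the interferon pathway, 125 in all, were taken from lists ordered by role. The lists were chosen with earlier results of these data known, so their shares beside all tested genes only describe them. Of the 125 genes 104 passed the filter, and none passed the edgeR test for NT-KO against WT in males or in females. At an unadjusted p under 0.05 there were 10 in males and 0 in females, against 11.5% and 1.55% of all genes, and their median log2 difference was 0.06 and 0.01. Neither the difference nor both sexes together gave a call among them. In males the likelihood ratio test put 2 of the 104 past an FDR of 0.05 and DESeq2 3, beside 254 and 308 of all 13117 tested genes. In females both put 0 of the 104. Without a filter on low counts edgeR put 7 of 118 past it in males and 0 in females, beside 917 and 194 of 29724 genes. For the difference this setting put 5 of 118 past it and over both sexes 2, beside 552 and 445 of 29724 genes.

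By sex, 20 of the 104 passed an FDR of 0.05 in the edgeR test, all of them higher in females, beside 4.12% of all tested genes that were higher. Of these, 9 had a log2 difference over 1, where 4.19% of all genes did in either direction. Their median log2 difference was 0.38. The median was 0.10 over the 76 genes whose mean level reached 5 CPM. The count of 20 moved by over 1.5 times when single libraries were left out, to 10 without male WT replicate 1, 11 and 7 without female WT replicates 1 and 2, and 8 and 12 without female NT-KO replicates 1 and 2, of which 9, 9, 7, 8 and 12 were higher in females. With the 4 WT libraries alone it was 8. It rose to 33 by the likelihood ratio test (29 higher in females), 35 by DESeq2 (31 higher) and 43 of 118 without a filter on low counts (38 higher). The count over all tested genes moved in the same directions. From 1028 of 13117 it rose to 1757 by the likelihood ratio test, 1849 by DESeq2 and 2722 of 29724 without a filter. It fell to 736 of 12749 with the 4 WT libraries alone, and also fell without each of the single libraries named.

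The ligands were hardly present. None of the 10 interferon genes searched passed the filter. Ifnk, the highest, had 4 to 16 counts per library and Ifng 1 to 5, while Ifna2 and Ifnb1 had a single count in 1 library each and the other 6 had 0 in all 8, which allows up to 3 counts per library. Lower levels were not detectable at this depth.

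Receptors and signal transducers did not pass the test by sex, with 0 of 11 past the FDR and a median log2 difference of 0.04. Jak1, the kinase shared by both receptor types, stood at 111 and 103 CPM in male WT and between 69.8 and 93.2 CPM in the other 6 libraries. Stat2 stood between 56.8 and 120 CPM over the 8 libraries, and its log2 difference by sex was -0.15 ± 0.201 (SE). Among 7 negative regulators Ptpn6, a phosphatase of blood cells singled out with its value known, was higher in females with a log2 difference of 0.59 ± 0.107 (SE) and an edgeR FDR of 0.0150, or 0.0665 without female WT replicate 2. The 2 highest by level, Ptpn1 and Irf2, had log2 differences of -0.24 and -0.12.

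Sensors and adaptors gave 0 of 13 past the FDR by sex and a median of 0.06. Mavs, the mitochondrial adaptor of RNA sensing, stood at 87.4 CPM and Irf3, the factor it activates, at 67.1 CPM on average over all libraries, with log2 differences by sex of -0.22 ± 0.167 and 0.06 ± 0.119 (SE). Of the other interferon regulatory factors 0 of 4 passed. Irf1 had a log2 difference of 0.29 ± 0.197 (SE).

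Of 42 other type I targets 11 passed the FDR by sex, all higher in females, beside 4.12% of all tested genes. At an unadjusted p under 0.05 there were 21, all higher in females, beside 13.8% of all tested genes. The list median of the log2 difference was 0.46. Oasl2, an oligoadenylate synthetase-like protein, lay between 5.23 and 6.08 CPM in females and between 2.61 and 2.85 CPM in males. The groups did not overlap, with a log2 difference of 1.02 ± 0.137 (SE) with an edgeR FDR of 0.00378. It held an FDR of 0.05 in every alternative, the highest being 0.0478 with the 4 WT libraries alone.

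Samd9l, a restriction factor for poxviruses, lay between 21.0 and 26.2 CPM in females and between 7.81 and 13.4 CPM in males, with an edgeR FDR of 0.0128, or 0.0551 without female NT-KO replicate 1. Oas2 and Ifi44 also passed, with log2 differences of 1.12 and 1.00 and FDRs of 0.0495 and 0.0474. Oas2 kept an FDR under 0.05 only without male NT-KO replicate 1 (0.0242) and Ifi44 only without male WT replicate 2 (0.0268), and both were lost without any of the other 7 libraries. The most abundant targets of this list did not pass, with Bst2 between 122 and 165 CPM and a log2 difference of -0.04 ± 0.140 (SE), and Ly6e at 0.53 ± 0.167 (SE) and an FDR of 0.0868.

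Of 18 other interferon-inducible GTPases 6 passed the FDR by sex, all guanylate-binding proteins and all higher in females. Over all tested genes 4.12% passed as higher, and the list median was 0.45. Gbp3 lay between 12.5 and 14.2 CPM in females and between 3.41 and 5.86 CPM in males. Its log2 difference of 1.54 ± 0.177 (SE) had an edgeR FDR of 0.0017 and ranged from 1.37 to 1.76 without single libraries. Gbp2 lay between 5.74 and 8.35 CPM in females and between 2.40 and 4.39 CPM in males with an FDR of 0.0082.

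Gbp6 lay between 9.62 and 13.8 CPM in females and between 4.81 and 7.55 CPM in males. Its edgeR FDR of 0.0133 became 0.0534 with female WT replicate 2 left out and 0.0543 with female NT-KO replicate 1 left out. Gbp10 overlapped, with 3.32 to 7.71 CPM in females and 1.98 to 3.69 CPM in males, and its FDR of 0.0324 was lost without any library but female WT replicate 1 (0.0135). The GTPases with the highest level, Iigp1 at 233 CPM and Gm4951 at 66.0 CPM on average, had log2 differences by sex of -0.02 ± 0.117 and -0.23 ± 0.139 (SE).

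Of the 9 other HIN-200 genes 2 passed the FDR by sex, Ifi213 and Ifi207, both higher in females, beside 4.12% of all tested genes. Of these 2, Ifi207 was named with its value known. Ifi213 lay between 1.54 and 3.11 CPM in females and between 0.444 and 1.31 CPM in males, a log2 difference of 1.61 ± 0.282 (SE) with an edgeR FDR of 0.0129. Its lowest female library was female NT-KO replicate 1. The plot of differences by sex sets these lists side by side.

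**Figure D4:**
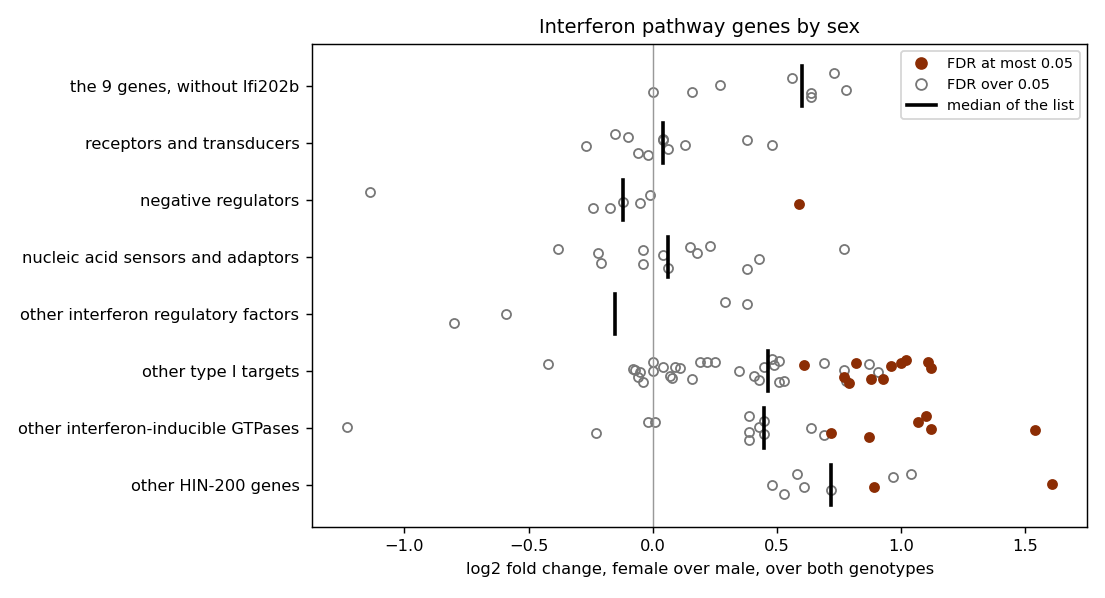
Log2 fold change of female over male libraries (x axis) for the tested genes of each interferon list (y axis). Each circle is a gene, filled where its FDR was at most 0.05, and bars are list medians. The 20 filled circles all lie to the right of 0, and 19 of them belong to the lists of targets, GTPases and HIN-200 genes.

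Markers of other liver cells also differed by sex. In bulk RNA fewer cells of a type and less RNA per cell cannot be told apart. All 8 Kupffer cell markers had a positive log2 difference, median 0.49, and 0 passed the FDR of 0.05. At an unadjusted p under 0.05 there were 5, beside 13.8% of all tested genes that were higher. The summed level of the 8 was 316 to 371 CPM in females and 175 to 295 CPM in males. The 5 endothelial markers summed to 146 to 166 CPM in females and 93.5 to 143 CPM in males, and none passed the FDR. Both sums separated the sexes without overlap.

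The 8 T and NK cell markers summed to 4.01 to 7.02 CPM in females and 1.30 to 2.12 CPM in males, with Cd8a and Ncr1 at 3 counts or fewer in at least 1 library. Of the 5 B cell markers 3 were higher in females past the FDR, although their sum overlapped (7.97 to 21.9 and 3.79 to 51.1 CPM). The 4 monocyte markers summed to 10.8 to 13.6 CPM in females and 6.76 to 12.0 CPM in males, and the 5 neutrophil markers to 1.24 to 3.00 and 1.81 to 7.01 CPM. Of the 5 markers of plasmacytoid dendritic cells, the main source of type I interferon in blood, Klk1 and Cox6a2 were at 3 counts or fewer in at least 1 library, and Siglech and Ccr9 also failed the filter. Tcf4 alone, at 8.09 to 12.4 CPM, made up most of their sum (10.9 to 12.9 CPM in females and 9.41 to 13.3 CPM in males), which therefore does not measure these cells.

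The 5 hepatocyte markers summed to 79500 to 93700 CPM in females and 72100 to 105000 CPM in males. The sum of the 5 blood markers was lower in females, at 170 to 318 CPM against 371 to 953 CPM. Of the 5, 2 passed the FDR, beside 488 of 13117 tested genes that were lower. Only Alas2 did not overlap, at 8.61 to 15.1 CPM in females and 90.6 to 168 CPM in males. The globin genes overlapped, such as Hbb-bs at 79.9 to 146 CPM in females and 135 to 393 CPM in males. The part of any of these cell types in the levels of the interferon genes was not tested.

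Genes whose level followed the 9 most closely were taken by correlation over the 8 libraries, which share sex and genotype, so the values only describe likeness. The mean of the 6 standardised type I genes was lowest in male WT replicate 1 (-1.54) and highest in female WT replicate 2 (1.25). The 5 genes most like it were Cmpk2 with a Pearson r of 0.990, Arhgap30 with 0.968, Slc7a8 with 0.963, Krba1 with 0.962 and Mx1 with 0.957, and Spearman's rho ran from 0.905 to 0.976. Without these 2 libraries, the farthest from the median, r ran from 0.838 to 0.973. Cmpk2, an interferon-induced nucleotide kinase and neighbour of Rsad2 on chromosome 12, stood between 1.70 and 3.79 CPM, and Mx1, an antiviral dynamin-like GTPase, between 0.887 and 2.67 CPM.

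For Ifi202b the 5 most alike genes were Gm8730, Gfod2, Ajuba, Gm30301 and Mid1-ps1, with r from 0.959 to 0.983 and rho from 0.791 to 0.873. Since Ifi202b is at 0 in 5 libraries, these values mainly record which 3 libraries were high. Gm8730, a pseudogene on chromosome 8, stood at 29.8 and 35.8 CPM in male WT and 29.9 CPM in female NT-KO replicate 1, against 3.73 to 6.81 CPM in the other 5. Without female NT-KO replicate 1 and male WT replicate 2, r remained between 0.915 and 0.994.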

How the data were processed

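Whole liver RNA was sequenced from 8 libraries in 4 groups, as the labels give them. The authors trimmed reads with cutadapt, aligned them with STAR 2.6.1a to GRCm38 and assigned them to Ensembl genes with featureCounts. The deposited values are raw counts per gene. From them, CPM on TMM-scaled totals, CPM per kb of exon and log2 CPM (prior count of 2) were computed. A gene was tested if 2 or more libraries reached 1 CPM (13117 genes, leaving out rRNA, miRNA and mitochondrial genes). A quasi-likelihood model of 4 group means was fitted to all 8 libraries in edgeR 4.0.16 (R 4.3.3) without a block, with Benjamini-Hochberg adjustment (FDR) over all tested genes. The standard error is the log2 fold change over the square root of F. An exact permutation test of 2 against 2 libraries cannot go below p = 0.333 and was not used. Limits from 0 counts cover counting error only.

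Symbols came from GENCODE M21, matching 49326 of 49671 IDs, and 2 list genes had no match. The 9 genes and the lists were chosen with earlier results of these data known. Named besides the 9 were, per list, the 2 highest genes by mean CPM and up to 5 called genes by FDR, the 5 genes of highest r for each pattern, and Lbr and sex-linked genes as a check of the labels. Of the genes so named, 1 is not reported here. The fit was tested on simulated data. Alternatives were the likelihood ratio test, DESeq2 1.42.0, RLE factors, no filter, a replicate block, the FDR alone, single-sex and WT-only fits, raw library size, and leaving out each library.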

Additional observations from a re-analysis of the deposited data

How the results depend on the processing

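The number of genes called for NT-KO against WT depended on the test and the filter. It was 2 in males, 1 in females, 2 over both sexes and 2 for the difference. The likelihood ratio test called 205, 11, 38 and 46, DESeq2 called 218, 5, 39 and 62, and no filter on low counts gave 667, 172, 205 and 552. The 4 libraries of 1 sex alone gave 0 in males and 0 in females. Without single libraries the counts ranged from 2 to 21 in males, were 0 in females, and ranged from 0 to 9 over both sexes and from 1 to 7 for the difference. The replicate block gave 3 in males, 0 in females, 2 over both sexes and 2 for the difference, and 537 by sex. Same-numbered replicates did not deviate together (correlations from -0.181 to 0.209), so the numbers were not taken as pairs. By sex the 550 calls became 1241 without a filter, 1028 by the FDR alone, and 364 to 561 without single libraries. The cause of these shifts was not tested. The median of the other interferon genes by sex moved to 0.10 among genes of at least 5 CPM. Without single libraries their medians ranged from -0.13 to 0.18 in males, from -0.04 to 0.04 in females, from -0.05 to 0.13 over both sexes, from -0.19 to 0.10 for the difference and from 0.25 to 0.44 by sex. On raw library size the mean of Isg15 moved beyond its spread, to 5.73 CPM (male NT-KO) and 11.2 CPM (female WT). The difference by sex of Irgm1 turned to -0.22 with the 4 WT libraries alone and ranged from -0.21 to 0.17 without single libraries. Leave-one-out ranges that crossed 0 for NT-KO against WT were, in males, -0.46 to 0.38 for Ifit1, -0.12 to 0.80 for Ifit3, -0.80 to 0.16 for Isg15, -0.62 to 0.16 for Usp18 and -0.25 to 0.21 for Rsad2, and in females -0.19 to 0.24 for Irf7, -0.43 to 0.27 for Isg15, -0.37 to 0.06 for Usp18, -0.29 to 0.16 for Rsad2, -0.18 to 0.56 for Irgm1 and -0.32 to 0.43 for Igtp.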
